A study of Mus musculus with 8 samples.

Results

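The Wnt and beta-catenin pathway was followed through 55 mouse genes chosen by symbol, all of which were found among the 31610 genes of the count table once the version number of the gene identifier was removed. They were 8 genes of ligands and their secretion, 18 receptors and coreceptors, 7 genes of the cytoplasmic relay, 4 TCF/LEF transcription factors, 7 targets and feedback genes, 6 genes of the R-spondin axis and 5 secreted inhibitors. Flow-sorted lung endothelial cells came from C57BL/6J mice that carried either an nANGPTL4 adeno-associated virus (AAV, a gene delivery vector) or a control AAV, with 4 independent biological replicates in each group. Every mouse had thus received a vector. The nANGPTL4 AAV libraries carry the words NT Treated in their titles, which the labels do not explain, and were placed by the treatment label. ANGPTL4 is a secreted protein that inhibits lipoprotein lipase. No source used here gave the age or sex of the mice, the promoter and serotype of the vector, the time after delivery or the gate of the sort.

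In canonical Wnt signalling, lipid-modified Wnt ligands bind Frizzled receptors together with the coreceptors LRP5 and LRP6, Dishevelled proteins are recruited, and the destruction complex of AXIN, APC and GSK3 no longer removes beta-catenin, which then acts with TCF/LEF factors on target genes. In blood vessels the receptor FZD4 is also used by norrin, with LRP5 and the tetraspanin TSPAN12, a system known best from the retina, while RECK and ADGRA2 serve WNT7 signalling in brain endothelium. In the lung, WNT2 is a ligand of the mesenchyme and WNT7B one of the epithelium.

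Total counts ranged from 91750817 to 108921765 in nANGPTL4 AAV libraries and from 83183122 to 114337333 in control AAV libraries, and the correlation across the more abundant genes was 0.987 to 0.995 between any pair of libraries on the scale of log2 CPM (CPM, a count scaled to a common library size). The 14 pan-endothelial markers summed to 22443 to 23642 CPM in nANGPTL4 AAV and 23872 to 24694 CPM in control AAV, and each of them had counts in every library. Markers of other cell types were present at far lower sums. The 17 epithelial markers summed to 497 to 609.5 CPM in nANGPTL4 AAV, against 353 to 518 CPM in control AAV, and the 18 fibroblast and mural markers to 110.3 to 234 CPM in nANGPTL4 AAV, against 102 to 191 CPM in control AAV. The 12 erythroid and platelet markers summed to 82.9 to 95.9 CPM in nANGPTL4 AAV, against 50.6 to 97.5 CPM in control AAV, and the 12 myeloid markers to 35.4 to 56.8 CPM in nANGPTL4 AAV, against 23.9 to 45.4 CPM in control AAV. The 14 lymphocyte markers summed to 4.14 to 8.04 CPM in nANGPTL4 AAV, against 3.23 to 3.69 CPM in control AAV, so that these groups did not overlap. None of these markers was at 0 in all libraries. Their part in the results below was not tested, except where a fit with a score of other cell types is named, which has the mean log2 CPM of 57 of these markers as a covariate.

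The genes of the pathway covered a very wide range of levels, and the sequences before a RefSeq start of 5 of them are shown first, for genes with a TCF/LEF motif there and for feedback targets without one. Windows of 250 bases before the RefSeq start (build GRCm38.p6) were at hand for 35 of the 55 genes and were searched for 2 short forms of the TCF/LEF motif, CTTTGAT and CTTTGAA, on both strands. The forms share their first letters and do not overlap each other on a strand. A match stood in 3 of 43 windows of pathway genes, and in 7.48% of the 32851 windows of that length over all genes. The 3 matches belonged to Sp5, a transcription factor gene used as a Wnt target, Wnt11 and Dkk1, and capitals mark them. The RefSeq start behind the Dkk1 window lies 169 bases after the first base of that gene in GENCODE M21. Its match, at position -117 from that RefSeq start, thus lies inside the annotated gene. The windows of Nkd1 and Axin2, 2 feedback targets with a higher level, held neither form. The RefSeq start behind the Nkd1 window lies 6279 bases after the first base of that gene in GENCODE M21, at an inner start, and the bases before the outermost start of Nkd1 were not searched. These are descriptions of letters and not evidence of binding.
Sp5, chr2:70474673-70474922, plus strand: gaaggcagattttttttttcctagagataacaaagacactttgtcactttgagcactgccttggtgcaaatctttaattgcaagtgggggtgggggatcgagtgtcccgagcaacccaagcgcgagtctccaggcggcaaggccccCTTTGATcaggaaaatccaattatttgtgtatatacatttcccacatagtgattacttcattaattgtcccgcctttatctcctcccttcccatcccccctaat
Wnt11, chr7:98834862-98835111, plus strand: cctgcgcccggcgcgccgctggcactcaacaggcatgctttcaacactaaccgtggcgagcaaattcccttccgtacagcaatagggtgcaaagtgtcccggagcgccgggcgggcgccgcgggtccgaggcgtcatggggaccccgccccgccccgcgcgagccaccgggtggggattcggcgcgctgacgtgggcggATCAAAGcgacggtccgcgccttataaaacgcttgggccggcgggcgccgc
Dkk1, chr19:30549497-30549746, minus strand: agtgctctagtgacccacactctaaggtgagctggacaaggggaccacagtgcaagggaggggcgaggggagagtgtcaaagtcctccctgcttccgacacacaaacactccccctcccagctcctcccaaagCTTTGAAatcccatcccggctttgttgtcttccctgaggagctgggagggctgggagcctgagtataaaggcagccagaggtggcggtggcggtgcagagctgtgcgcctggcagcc
Nkd1, chr8:88527383-88527632, plus strand: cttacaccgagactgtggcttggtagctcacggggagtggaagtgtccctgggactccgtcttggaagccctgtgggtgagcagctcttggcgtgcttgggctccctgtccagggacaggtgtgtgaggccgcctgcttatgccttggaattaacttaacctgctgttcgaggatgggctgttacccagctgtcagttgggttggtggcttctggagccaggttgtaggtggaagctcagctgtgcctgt
Axin2, chr11:108920099-108920348, plus strand: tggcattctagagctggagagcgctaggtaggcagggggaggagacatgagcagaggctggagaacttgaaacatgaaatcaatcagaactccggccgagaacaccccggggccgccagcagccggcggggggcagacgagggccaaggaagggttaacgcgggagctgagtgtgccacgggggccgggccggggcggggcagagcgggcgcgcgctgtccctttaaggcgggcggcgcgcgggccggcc

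To compare genes with each other, levels were set per length, as CPM per kilobase of annotated exon (RPKM), averaged over all 8 libraries with the SD over libraries. Nkd1, whose product binds Dishevelled and dampens Wnt signalling, was the most abundant gene of the pathway at 180.0 ± 5.20 RPKM, and 1.03% of all tested genes were higher. Ctnnb1, which encodes beta-catenin, at 93.1 ± 4.88 RPKM and Fzd4 at 90.5 ± 11.3 RPKM came next and did not differ beyond their spread. Tspan12 followed at 62.3 ± 3.81 RPKM, then the cyclin gene Ccnd1 at 34.9 ± 2.22 RPKM, Dvl1 at 27.4 ± 5.57 RPKM and Fzd6 at 26.1 ± 2.77 RPKM, of which the last pair lay within their spread. At the other end, Wnt7b was at 0.0139 ± 0.00552 RPKM and Fzd10 at 0.0112 ± 0.00766 RPKM. Every Wnt ligand among the members and every gene of the R-spondin axis was under 1 RPKM, and the genes of the relay lay between 4.44 RPKM for Dvl3 and 93.1 RPKM for Ctnnb1, as the plot of levels by role shows.

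**Figure D1:**
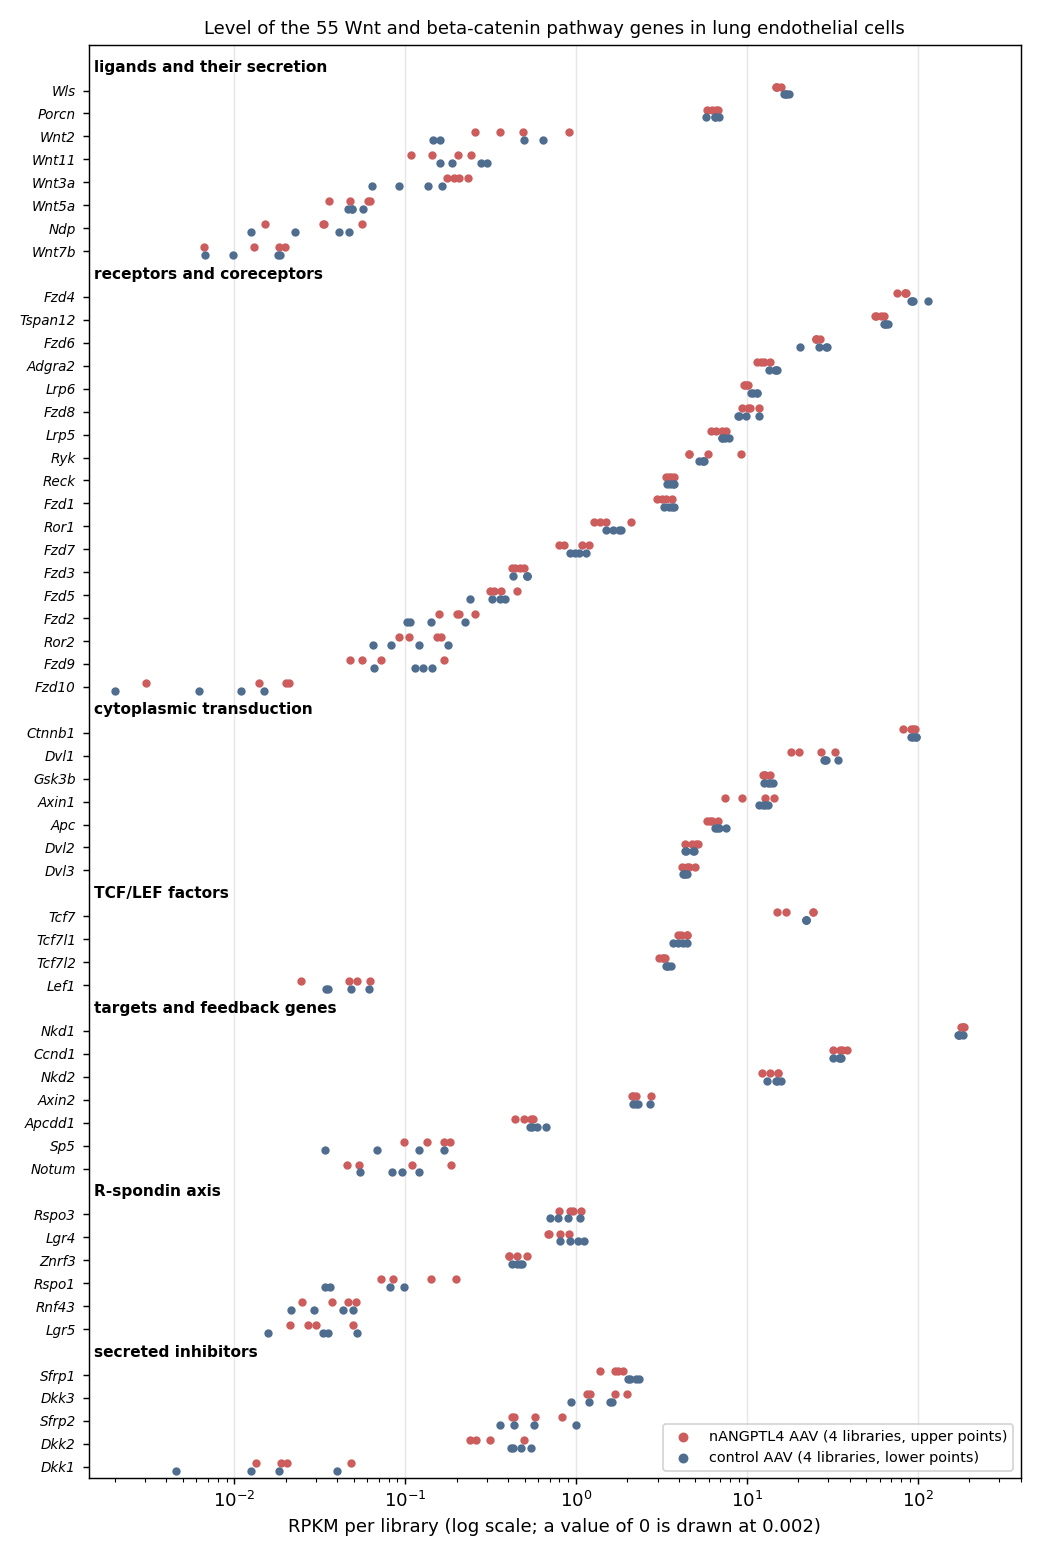
Level of the 55 pathway genes in RPKM on a log axis, grouped by role, with 4 points for nANGPTL4 AAV libraries above 4 points for control AAV libraries in each row. Nkd1 stands at the right end at 180.0 RPKM and Fzd10 at the left end at 0.0112 RPKM.

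Among ligands and their secretion, the cells held the secretion machinery and little RNA of the ligands among the members. Wls, the carrier that takes Wnt proteins to the cell surface, was at 16.1 ± 1.10 RPKM, and Porcn, the enzyme that attaches their lipid, at 6.39 ± 0.408 RPKM. The 5 Wnt genes among the members lay between 0.0139 RPKM for Wnt7b and 0.432 RPKM for Wnt2. Outside the members, Wnt2b was at 0.847 ± 0.132 RPKM and Wnt4 at 0.519 ± 0.168 RPKM. Wnt7b had 3, 9, 7 and 10 reads in nANGPTL4 AAV libraries 1 to 4, against 3, 10, 4 and 9 reads in control AAV libraries 1 to 4. Ndp, the norrin gene, had 6, 11, 7 and 3 reads in nANGPTL4 AAV libraries 1 to 4, against 4, 9, 2 and 9 in control AAV libraries 1 to 4. Both were below the filter on low counts and were not tested. The groups overlapped in each.

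Frizzled RNA was mostly Fzd4. Fzd4 made up 66.5% ± 0.917 in nANGPTL4 AAV and 70.1% ± 1.88 in control AAV of the summed RPKM of the 10 Frizzled genes (SD, n = 4 each). Fzd6, a receptor linked with planar polarity, made up 20.8% ± 0.926 in nANGPTL4 AAV and 18.8% ± 2.15 in control AAV, and Fzd8 8.39% ± 0.619 in nANGPTL4 AAV and 7.04% ± 0.219 in control AAV. The other 7 Frizzled genes were each under 3% on average in both groups. These shares were not tested, and they are parts of one whole. Fzd10 had 6, 1, 5 and 7 reads in nANGPTL4 AAV libraries 1 to 4, against 0, 4, 4 and 2 reads in control AAV libraries 1 to 4, and a count of 0 allows up to 3 reads in that library. Of the coreceptors, Lrp6 was at 10.5 ± 0.757 RPKM and Lrp5 at 7.12 ± 0.541 RPKM. Adgra2 at 13.5 ± 1.33 RPKM stood above its partner Reck at 3.58 ± 0.153 RPKM. Among the receptors of noncanonical signalling, Ryk was at 5.80 ± 1.47 RPKM, Ror1 at 1.62 ± 0.271 RPKM and Ror2 at 0.120 ± 0.0407 RPKM.

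In the relay, Dvl1 gave 71.7% ± 5.01 in nANGPTL4 AAV and 77.0% ± 2.02 in control AAV of the summed RPKM of the 3 Dishevelled genes (SD, n = 4 each). The destruction complex was represented by Gsk3b at 13.1 ± 0.652 RPKM, Axin1 at 11.8 ± 2.27 RPKM and Apc at 6.58 ± 0.525 RPKM. Of the 4 TCF/LEF genes, Tcf7 gave 72.2% ± 5.80 in nANGPTL4 AAV and 74.5% ± 1.08 in control AAV of the summed RPKM (SD, n = 4 each), with Tcf7l1 at 4.18 ± 0.281 RPKM and Tcf7l2 at 3.33 ± 0.170 RPKM. Lef1 was close to absent, with 20, 55, 45 and 47 reads in nANGPTL4 AAV libraries 1 to 4, against 49, 34, 35 and 31 reads in control AAV libraries 1 to 4, and 96.1% of all tested genes were higher per length. Of the targets and feedback genes, Nkd2 at 14.4 ± 1.23 RPKM and Axin2 at 2.33 ± 0.246 RPKM lay between Ccnd1 and the low genes Apcdd1 (0.548 ± 0.0656 RPKM), Sp5 (0.122 ± 0.0528 RPKM) and Notum (0.0935 ± 0.0460 RPKM). The gene for the R-spondin receptor Lgr4 was at 0.871 ± 0.154 RPKM, that for the ligand Rspo3 at 0.898 ± 0.132 RPKM and that for the ubiquitin ligase Znrf3 at 0.451 ± 0.0399 RPKM, and Rspo1, Rnf43 and Lgr5 were each under 0.1 RPKM. Of the secreted inhibitors Sfrp1 was highest at 1.92 ± 0.310 RPKM, then Dkk3 at 1.42 ± 0.348 RPKM, Sfrp2 at 0.579 ± 0.226 RPKM and Dkk2 at 0.397 ± 0.113 RPKM, and Dkk1, with 3, 5, 5 and 12 reads in nANGPTL4 AAV libraries 1 to 4, against 1, 5, 8 and 3 reads in control AAV libraries 1 to 4, was not tested.

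Setting nANGPTL4 AAV against control AAV asks which RNAs of the endothelial cells differ when the vector carries nANGPTL4. No pathway gene passed the threshold: 0 of the 51 members tested had an adjusted p under 0.05 in edgeR's quasi-likelihood test, where 0.138% of all 18874 genes tested did, 0.0477% higher and 0.0901% lower. At an adjusted p under 0.1 stood 2 members, Wls and Lrp6, both lower, where 2.5% of all tested genes passed and 1.89% were lower. The 4 that were not tested were Wnt7b, Ndp, Fzd10 and Dkk1. At an unadjusted p under 0.05 stood 12 members (23.5%), 2 higher and 10 lower in nANGPTL4 AAV, where the share of all tested genes was 17.6%, with 7.35% higher and 10.3% lower. DESeq2 called 5 of the 46 members to which it gave an adjusted p (10.9%), all lower, where it called 6.14% of all such genes in either direction and 4.16% lower. These were Wls, Lrp6, Sfrp1, Adgra2 and Fzd4. All 5 had a mean log2 CPM over 3, and the shares in this paragraph were not counted by level. Genes wholly lower in nANGPTL4 AAV made up 12.6% of the 9256 genes of that level, against 6.99% of all tested genes. Below, a log2 fold change is nANGPTL4 AAV over control AAV, and its standard error (SE) and adjusted p are those of the edgeR test with Benjamini-Hochberg adjustment over all genes tested. In bulk RNA from sorted cells, fewer cells of a type and less RNA per cell cannot be told apart.

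The members with the smallest p included receptor and secretion genes at slightly lower levels in nANGPTL4 AAV. In the same libraries 13 of 14 pan-endothelial markers lay below 0 on the log2 scale, their median being -0.05, and 15 of 17 epithelial markers lay above it, their median being 0.21. Of the tested markers, 10 of 11 erythroid and platelet (median 0.32) and 7 of 7 lymphocyte (median 0.70) were also positive. Those of myeloid cells were positive in 4 of 6 (median 0.17), and of fibroblasts and mural cells in 8 of 16 (median 0.03). Wls was at 130.3, 133, 139 and 129.8 CPM in nANGPTL4 AAV libraries 1 to 4, against 149.7, 155, 145 and 148 CPM in control AAV libraries 1 to 4. Every nANGPTL4 AAV library lay below every control AAV library, by a log2 fold change of -0.17 (standard error 0.04, edgeR adjusted p = 0.0876). The coreceptor gene Lrp6 was at 138, 137, 133 and 131 CPM in nANGPTL4 AAV libraries 1 to 4, against 157, 157, 145 and 148 CPM in control AAV libraries 1 to 4. Its groups did not overlap either, and its log2 fold change was -0.17 (standard error 0.04, edgeR adjusted p = 0.0952). Fzd4 was at 568, 511, 570.2 and 577 CPM in nANGPTL4 AAV libraries 1 to 4, against 769, 616, 620.1 and 635 CPM in control AAV libraries 1 to 4. Its groups did not overlap, control AAV library 1 stood above the rest, and the log2 fold change was -0.25 (standard error 0.07, edgeR adjusted p = 0.134). Without that library the log2 fold change of Fzd4 was -0.16, and with the score of other cell types as a covariate it was -0.12. Tspan12 was at 189, 202, 211 and 186 CPM in nANGPTL4 AAV libraries 1 to 4, against 213, 212, 215 and 222 CPM in control AAV libraries 1 to 4. The highest nANGPTL4 AAV library, number 3, and the lowest control AAV library, number 2, were nearly tied, and the log2 fold change was -0.13 (standard error 0.05, edgeR adjusted p = 0.201), or -0.09 when libraries were scaled by size alone. Adgra2 was at 70.2, 79.2, 66.1 and 72.8 CPM in nANGPTL4 AAV libraries 1 to 4, against 84.5, 85.6, 78.1 and 87.3 CPM in control AAV libraries 1 to 4. Here nANGPTL4 AAV library 2 lay just above control AAV library 3, so the groups overlapped, and the log2 fold change was -0.22 (standard error 0.06, edgeR adjusted p = 0.110). Lrp5 was at 69.5, 73.4, 63.9 and 59.9 CPM in nANGPTL4 AAV libraries 1 to 4, against 70.0, 72.7, 76.2 and 69.4 CPM in control AAV libraries 1 to 4, with overlapping groups and a log2 fold change of -0.11 (standard error 0.06, edgeR adjusted p = 0.390). With the score of other cell types as a covariate, the log2 fold change was -0.16 for Wls and -0.15 for Lrp6. In that fit it was -0.13 for Tspan12, -0.25 for Adgra2 and -0.16 for Lrp5. Among the 17 receptors and coreceptors tested 12 were negative and 5 positive, and the median was -0.10. Over all 18874 tested genes 9014 were negative, with a median of 0.01. Of the 11 receptors and coreceptors with a mean log2 CPM over 3, 9 were negative, with a median of -0.11. Among all 9256 genes of that level 5787 were negative, with a median of -0.03.

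**Figure D2:**
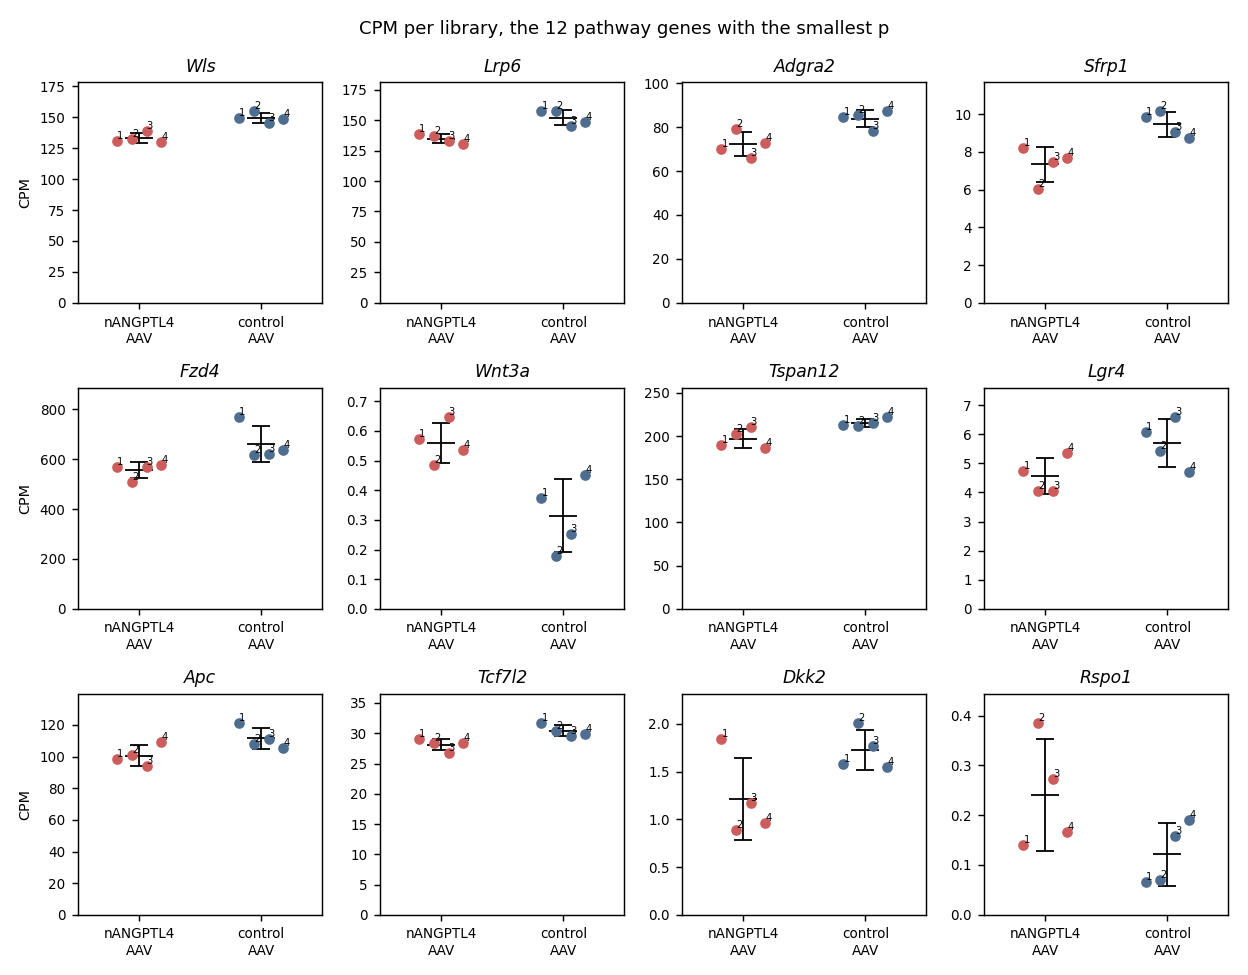
CPM in each library for the 12 pathway genes with the smallest unadjusted p, nANGPTL4 AAV left of control AAV, with the library number at each point and the mean and SD (n = 4) as black bars. In Wls the nANGPTL4 AAV libraries reach 138.5 CPM at most and the control AAV libraries start at 145.3 CPM.

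Of the ligands, Wnt3a, a canonical ligand, was the only member whose nANGPTL4 AAV libraries all lay above the control AAV libraries. It had 53, 49, 71 and 55 reads in nANGPTL4 AAV libraries 1 to 4, against 34, 20, 21 and 45 reads in control AAV libraries 1 to 4, which is 0.560 ± 0.0686 CPM in nANGPTL4 AAV and 0.314 ± 0.123 CPM in control AAV (SD, n = 4 each). The log2 fold change was 0.84 (standard error 0.27, edgeR adjusted p = 0.152), and 1.03 with the score of other cell types as a covariate. At so few reads the level is near the low end of tested genes, of which 83.7% were higher per length, and the 14 lymphocyte markers, also at low reads, had 7 members tested, all with positive values. Low genes as a whole were more often positive. Of all 18874 tested genes 9860 were positive, but only 3469 of the 9256 with a mean log2 CPM over 3. Wnt2 was at 0.811, 2.05, 0.574 and 1.10 CPM in nANGPTL4 AAV libraries 1 to 4, against 0.329, 1.11, 1.44 and 0.362 CPM in control AAV libraries 1 to 4. Both groups spread over more than a doubling of the level, and the log2 fold change was 0.49 (standard error 0.50, edgeR adjusted p = 0.657). Without nANGPTL4 AAV library 2 it was 0.04. With the score of other cell types as a covariate it was -0.38. The fibroblast and mural marker sum in the same libraries was 125, 234, 110.3 and 184 CPM in nANGPTL4 AAV libraries 1 to 4 and 102, 174, 191 and 128 CPM in control AAV libraries 1 to 4, so both were highest in nANGPTL4 AAV library 2. Wnt5a, a ligand of noncanonical signalling, was at 0.281, 0.474, 0.374 and 0.486 CPM in nANGPTL4 AAV libraries 1 to 4, against 0.384, 0.442, 0.363 and 0.382 CPM in control AAV libraries 1 to 4, with overlapping groups and a log2 fold change of 0.04 (standard error 0.21, edgeR adjusted p = 0.946).

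In the relay, the abundant gene Ctnnb1 was nearly level. It was at 477, 501, 428 and 486 CPM in nANGPTL4 AAV libraries 1 to 4, against 508, 504, 478 and 486 CPM in control AAV libraries 1 to 4, with overlapping groups, a log2 fold change of -0.06 (standard error 0.05, edgeR adjusted p = 0.590) and a 95% interval of -0.18 to 0.06. Of its exonic bases 14.6% overlap Ulk4 on the other strand, which was at 1.27 CPM in nANGPTL4 AAV and 1.32 CPM in control AAV. Apc was at 98.6, 101, 93.8 and 109 CPM in nANGPTL4 AAV libraries 1 to 4, against 121, 108, 111 and 105 CPM in control AAV libraries 1 to 4. Only nANGPTL4 AAV library 4 lay within the control range, and the log2 fold change was -0.15 (standard error 0.06, edgeR adjusted p = 0.228), or -0.10 without control AAV library 1. Gsk3b, the kinase of the complex, had a log2 fold change of -0.07 (standard error 0.05, edgeR adjusted p = 0.512). Of the transcription factors, Tcf7l2 was at 29.0, 28.4, 26.8 and 28.3 CPM in nANGPTL4 AAV libraries 1 to 4, against 31.7, 30.4, 29.6 and 29.9 CPM in control AAV libraries 1 to 4. Its groups did not overlap, and the log2 fold change was -0.11 (standard error 0.05, edgeR adjusted p = 0.249), or -0.07 when libraries were scaled by size alone or by the upper quartile. Lef1 had a log2 fold change of 0.06 (standard error 0.30, edgeR adjusted p = 0.935) at a mean of 0.407 CPM in nANGPTL4 AAV and 0.393 CPM in control AAV.

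The targets and feedback genes are often read as a gauge of beta-catenin activity. Of these 7 genes 0 had an unadjusted p under 0.05, where 17.6% of all tested genes did, and 3 had negative and 4 positive values. A list of 7 genes is too short to set against that share, and beta-catenin activity was not tested. Axin2, the most general of these targets, was at 11.8, 12.4, 15.2 and 11.9 CPM in nANGPTL4 AAV libraries 1 to 4, against 11.8, 12.3, 12.7 and 14.8 CPM in control AAV libraries 1 to 4. The groups overlapped almost fully, with a log2 fold change of -0.01 (standard error 0.10, edgeR adjusted p = 0.964) and a 95% interval of -0.23 to 0.21, and the sign turned with the scaling. Nkd1 was at 848, 816, 839 and 842 CPM in nANGPTL4 AAV libraries 1 to 4, against 785, 799, 835 and 800.0 CPM in control AAV libraries 1 to 4, with overlapping groups, a log2 fold change of 0.06 (standard error 0.04, edgeR adjusted p = 0.520) and an interval of -0.03 to 0.15. Nkd2 had a log2 fold change of -0.06 (standard error 0.08, edgeR adjusted p = 0.722) and Ccnd1 one of 0.05 (standard error 0.06, edgeR adjusted p = 0.722). Of the exonic bases of Ccnd1 23.4% overlap LTO1 on the other strand, which was at 25.7 CPM in nANGPTL4 AAV and 26.8 CPM in control AAV, so part of its count is less certain where strand was not used. Apcdd1, a membrane-bound inhibitor, was at 7.02, 5.65, 6.43 and 7.22 CPM in nANGPTL4 AAV libraries 1 to 4, against 7.15, 8.57, 6.88 and 7.57 CPM in control AAV libraries 1 to 4, and its groups overlapped. Its log2 fold change was -0.20 (standard error 0.10, edgeR adjusted p = 0.338) with an interval of -0.42 to 0.02. Sp5 was at 0.205, 0.385, 0.355 and 0.282 CPM in nANGPTL4 AAV libraries 1 to 4, against 0.143, 0.0708, 0.254 and 0.352 CPM in control AAV libraries 1 to 4, too few reads for a narrow interval (-0.31 to 1.51 around a log2 fold change of 0.60, edgeR adjusted p = 0.482).

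Among the secreted inhibitors, Sfrp1, which binds Wnt ligands, was at 8.22, 6.05, 7.44 and 7.66 CPM in nANGPTL4 AAV libraries 1 to 4, against 9.86, 10.2, 9.06 and 8.75 CPM in control AAV libraries 1 to 4. The groups did not overlap, nANGPTL4 AAV library 2 was the lowest, and the log2 fold change was -0.37 (standard error 0.10, edgeR adjusted p = 0.111). With the score of other cell types as a covariate it was -0.27. Dkk2, a ligand of LRP coreceptors that blocks them in many settings, was at 1.84, 0.889, 1.17 and 0.963 CPM in nANGPTL4 AAV libraries 1 to 4, against 1.58, 2.01, 1.77 and 1.55 CPM in control AAV libraries 1 to 4. Library 1 of nANGPTL4 AAV lay inside the control range and the other 3 below it, and the log2 fold change was -0.51 (standard error 0.22, edgeR adjusted p = 0.259), or -0.77 without that library. In the R-spondin axis, Lgr4 was at 4.75, 4.05, 4.06 and 5.34 CPM in nANGPTL4 AAV libraries 1 to 4, against 6.07, 5.41, 6.59 and 4.72 CPM in control AAV libraries 1 to 4, with overlapping groups and a log2 fold change of -0.32 (standard error 0.13, edgeR adjusted p = 0.226). Rspo1 had 13, 39, 30 and 17 reads in nANGPTL4 AAV libraries 1 to 4, against 6, 8, 13 and 19 reads in control AAV libraries 1 to 4. These overlapped, and the log2 fold change was 1.004 (standard error 0.43, edgeR adjusted p = 0.260). With the score of other cell types as a covariate it was 0.56. Rspo3 was at 2.84, 3.29, 2.97 and 2.45 CPM in nANGPTL4 AAV libraries 1 to 4, against 2.78, 2.17, 2.42 and 3.28 CPM in control AAV libraries 1 to 4, with overlapping groups and a log2 fold change of 0.12 (standard error 0.15, edgeR adjusted p = 0.720).

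The remaining members all overlapped between the groups. Fzd6 was at 128, 123, 123 and 123 CPM in nANGPTL4 AAV libraries 1 to 4, against 142, 128, 99.0 and 141 CPM in control AAV libraries 1 to 4. The control AAV libraries spread more than the nANGPTL4 AAV libraries, and the log2 fold change was -0.04 (standard error 0.10, edgeR adjusted p = 0.881), a sign that turned when libraries were scaled by size or by the upper quartile. Fzd8 averaged 62.4 ± 6.18 CPM in nANGPTL4 AAV and 59.1 ± 8.08 CPM in control AAV (SD, n = 4 each), with a 95% interval of -0.13 to 0.29 for the log2 fold change. That fold change was 0.08, and 0.18 without control AAV library 1. With the score of other cell types as a covariate the value for Fzd8 was 0.25 (edgeR adjusted p = 0.212 in that fit). Fzd1, a receptor of both branches of the pathway, averaged 13.9 ± 1.19 CPM in nANGPTL4 AAV and 14.9 ± 0.892 CPM in control AAV (SD, n = 4 each), with an interval of -0.27 to 0.07. Of the rarer Frizzled genes, Fzd3 averaged 5.86 ± 0.447 CPM in nANGPTL4 AAV and 6.33 ± 0.545 CPM in control AAV, Fzd7 4.44 ± 0.842 CPM in nANGPTL4 AAV and 4.65 ± 0.436 CPM in control AAV and Fzd5 2.52 ± 0.432 CPM in nANGPTL4 AAV and 2.25 ± 0.440 CPM in control AAV (SD, n = 4 each). Fzd2 averaged 0.752 ± 0.149 CPM in nANGPTL4 AAV and 0.524 ± 0.204 CPM in control AAV and Fzd9 0.198 ± 0.130 CPM in nANGPTL4 AAV and 0.258 ± 0.0761 CPM in control AAV (SD, n = 4 each), and their intervals were wide, at -0.06 to 1.10 for Fzd2 and -1.30 to 0.50 for Fzd9.

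Several further members of middle level had narrow intervals. Reck, the membrane protein gene, had an interval of -0.15 to 0.11 around an average of 16.99 ± 0.795 CPM in nANGPTL4 AAV and 17.2 ± 0.764 CPM in control AAV (SD, n = 4 each). For Porcn the interval was -0.16 to 0.14, and the average was 19.1 ± 1.23 CPM in nANGPTL4 AAV and 19.2 ± 1.40 CPM in control AAV (SD, n = 4 each). Tcf7l1, often a repressor of Wnt targets, averaged 16.7 ± 0.980 CPM in nANGPTL4 AAV and 16.1 ± 1.28 CPM in control AAV (SD, n = 4 each), with an interval of -0.10 to 0.21. Dvl2 averaged 30.4 ± 2.37 CPM in nANGPTL4 AAV and 29.1 ± 1.88 CPM in control AAV and Dvl3 29.2 ± 2.02 CPM in nANGPTL4 AAV and 27.8 ± 0.687 CPM in control AAV (SD, n = 4 each), so that they did not share the low values of Dvl1 in nANGPTL4 AAV. Their intervals were -0.09 to 0.21 for Dvl2 and -0.05 to 0.20 for Dvl3. Of the exonic bases of Dvl2 18.3% overlap Acadvl on the other strand, which was at 46.9 CPM in nANGPTL4 AAV and 45.5 CPM in control AAV, so its count is uncertain where strand was not used.

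The rest were low, apart from Ror1, which averaged 8.99 CPM in nANGPTL4 AAV and 9.73 CPM in control AAV. The noncanonical receptor genes Ror1 and Ror2 had intervals of -0.43 to 0.20 and -0.51 to 0.88. Wnt11, another noncanonical ligand gene, averaged 0.722 ± 0.250 CPM in nANGPTL4 AAV and 0.957 ± 0.285 CPM in control AAV (SD, n = 4 each), with an interval of -1.02 to 0.22. Znrf3, whose product removes Frizzled receptors from the surface, averaged 3.50 ± 0.419 CPM in nANGPTL4 AAV and 3.62 ± 0.215 CPM in control AAV (SD, n = 4 each), with an interval of -0.29 to 0.19. Its relative Rnf43 averaged 0.261 ± 0.0755 CPM in nANGPTL4 AAV and 0.236 ± 0.0848 CPM in control AAV and the receptor gene Lgr5 0.327 ± 0.125 CPM in nANGPTL4 AAV and 0.350 ± 0.154 CPM in control AAV (SD, n = 4 each). Dkk3 averaged 5.06 ± 1.33 CPM in nANGPTL4 AAV and 4.47 ± 1.10 CPM in control AAV and Sfrp2 1.22 ± 0.406 CPM in nANGPTL4 AAV and 1.27 ± 0.623 CPM in control AAV (SD, n = 4 each). Notum, which encodes an enzyme that takes the lipid off Wnt proteins, averaged 0.237 ± 0.154 CPM in nANGPTL4 AAV and 0.214 ± 0.0665 CPM in control AAV (SD, n = 4 each), and 33.0% of its stretches of 31 bases were shared with other genes, mainly its antisense gene Notumos, so its count is uncertain.

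Over the pathway, the nANGPTL4 AAV libraries lay wholly below the control AAV libraries in 6 of 51 members (11.8%), namely Wls, Fzd4, Lrp6, Tspan12, Tcf7l2 and Sfrp1, where 6.99% of all tested genes did. All 6 were among the 28 members with a mean log2 CPM over 3, which is 21.4% of those 28, and among all genes of that level the share was 12.6%. They lay wholly above in 1 member, Wnt3a, where 3.89% of all tested genes did. These counts use the scaled CPM of the fit. When libraries are scaled by size alone the groups of Tspan12 overlap, and the shares over all genes were not counted that way. Negative values were found in 31 of 51 members and in 9014 of 18874 tested genes, and the medians of the log2 fold change were -0.06 and 0.01. Among the 28 more abundant members 21 were negative, with a median of -0.08, and among all 9256 genes of that level 5787 were, with a median of -0.03. When libraries were scaled by size alone, these medians were -0.04 and 0.01. The 95% interval lay within 0.5 of 0 on the log2 scale for 24 of the 28, and for 8858 of the 9256. The other 4 were Dvl1, Axin1, Ryk and Sfrp1. The plot of differences shows how the intervals widen in the low members, such as the Wnt ligands and R-spondins.

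**Figure D3:**
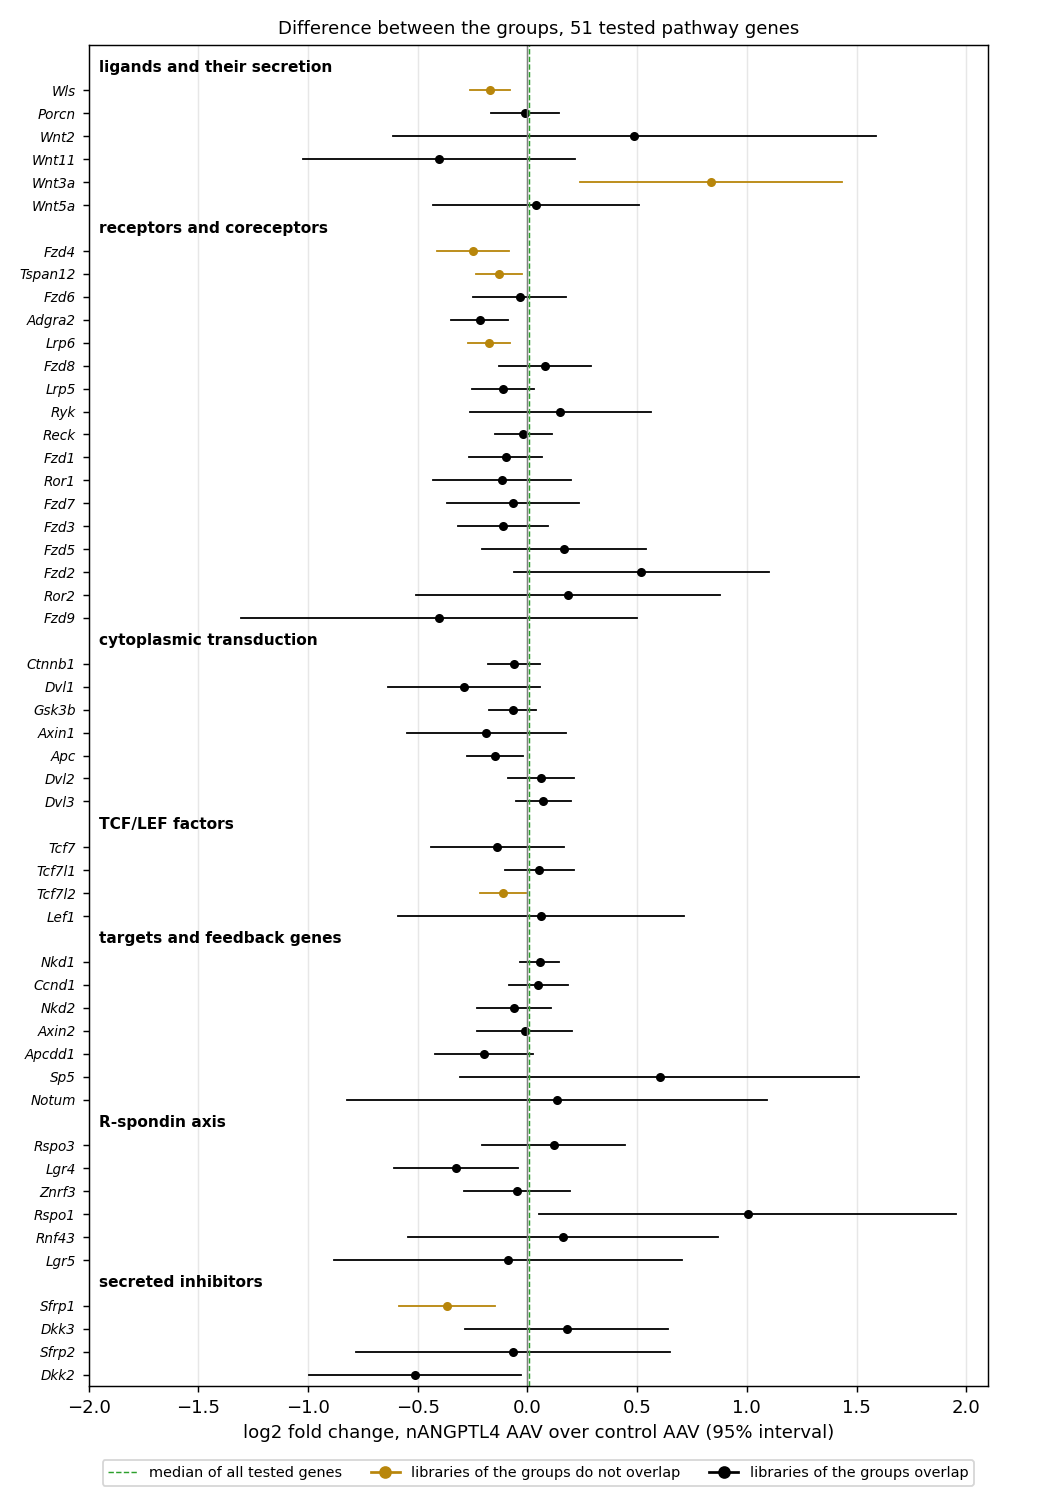
Log2 fold change of nANGPTL4 AAV over control AAV with its 95% interval for the 51 tested pathway genes, grouped by role, with gold marking genes whose libraries do not overlap between the groups. Most intervals cross 0 (grey line), which nearly coincides with the median of all tested genes at 0.01 (dashed line).

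A pattern of another kind lay within the nANGPTL4 AAV group. Of the 26 members with a mean of at least 10 CPM, 4 had a coefficient of variation over 20% among nANGPTL4 AAV libraries and 0 among control AAV libraries. Over all 8840 genes of that level the shares were 3.11% in nANGPTL4 AAV and 2.07% in control AAV. The 4 were Dvl1, Axin1, Tcf7 and Ryk, chosen here after their values were seen. Dvl1 was at 101, 91.2, 165 and 135 CPM in nANGPTL4 AAV libraries 1 to 4, against 146, 171, 140.4 and 144 CPM in control AAV libraries 1 to 4. Axin1, the scaffold of the destruction complex, was at 36.0, 28.6, 55.3 and 49.1 CPM in nANGPTL4 AAV libraries 1 to 4, against 48.7, 50.8, 45.4 and 47.7 CPM in control AAV libraries 1 to 4. Tcf7 was at 44.7, 39.5, 64.2 and 63.9 CPM in nANGPTL4 AAV libraries 1 to 4, against 57.9, 58.5, 58.5 and 58.6 CPM in control AAV libraries 1 to 4. In each of these 3, nANGPTL4 AAV libraries 1 and 2 lay below every control AAV library. Library 3 lay inside the control range for Dvl1 and above it for Axin1 and Tcf7, and library 4 lay below it for Dvl1, inside it for Axin1 and above it for Tcf7. Ryk, a receptor-like pseudokinase gene, was at 20.9, 20.9, 41.9 and 26.9 CPM in nANGPTL4 AAV libraries 1 to 4, against 25.2, 25.4, 23.9 and 25.1 CPM in control AAV libraries 1 to 4, with libraries 1 and 2 below and libraries 3 and 4 above every control AAV library. The control AAV libraries were close together, with a coefficient of variation of 0.556% for Tcf7 and 2.78% for Ryk. The log2 fold changes were -0.29, -0.19, -0.14 and 0.15 in that order of genes, with edgeR adjusted p-values of 0.371, 0.595, 0.650 and 0.724. Without nANGPTL4 AAV library 2 these values were -0.15 for Dvl1, -0.03 for Axin1 and -0.0054 for Tcf7, and without library 3 they were -0.45 for Dvl1, -0.33 for Axin1, -0.23 for Tcf7 and -0.11 for Ryk. Of the marker lists, the erythroid and platelet sum was higher in nANGPTL4 AAV libraries 1 and 2 (91.3 and 95.9 CPM) than in libraries 3 and 4 (88.1 and 82.9 CPM). The pan-endothelial sum was also higher in libraries 1 and 2 (23642 and 23616 CPM) than in libraries 3 and 4 (23390.0 and 22443 CPM). The epithelial, myeloid, lymphocyte, and fibroblast and mural sums did not part these libraries in that way. The part of these cells in the spread was not tested. The labels name no batch, and what sets libraries 1 and 2 apart from 3 and 4 in these genes was not tested.

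**Figure D4:**
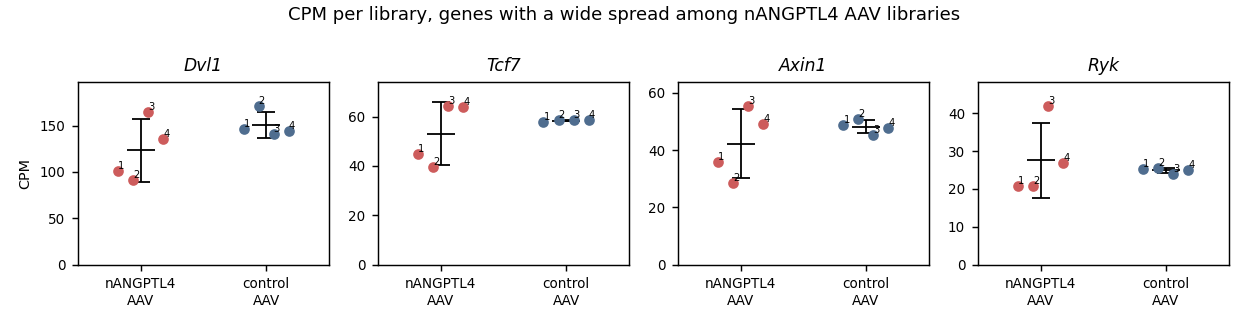
CPM in each library for Dvl1, Tcf7, Axin1 and Ryk, nANGPTL4 AAV left of control AAV, with the library number at each point and the mean and SD (n = 4) as black bars. Libraries 1 and 2 of nANGPTL4 AAV are the lowest of all 8 libraries in each gene, and the 4 control AAV libraries of Tcf7 lie between 57.9 and 58.6 CPM.

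Further genes of the pathway were taken from lists that hold none of the 55, which were also chosen with earlier results of these data known. Of 87 other Wnt pathway genes 75 were tested, 0 were called by edgeR, and 15 had an unadjusted p under 0.05 (20%, against 17.6% of all genes), 3 higher and 12 lower. The 4 with the smallest p were all lower without overlap, which a choice by p favours. Over the list 9 of 75 genes (12%) lay wholly lower, against 6.99% of all tested genes. Among the 45 with a mean log2 CPM over 3 there were 8 (17.8%), against 12.6% of all genes of that level. Usp9x, which encodes a deubiquitinase, was at 83.7, 80.0, 82.3 and 89.6 CPM in nANGPTL4 AAV libraries 1 to 4, against 104, 102, 97.5 and 95.5 CPM in control AAV libraries 1 to 4, with a log2 fold change of -0.25 (standard error 0.05, edgeR adjusted p = 0.0643). It was -0.29 (standard error 0.07, edgeR adjusted p = 0.0952) for Nfatc1, a calcium-responsive transcription factor, -0.16 (standard error 0.04, edgeR adjusted p = 0.111) for Daam1, a formin bound by Dishevelled, and -0.17 (standard error 0.05, edgeR adjusted p = 0.114) for the corepressor gene Ctbp2. DESeq2 called these 4 and no other gene of the list, out of 67 with an adjusted p (5.97%), where it called 6.14% of all such genes and 4.16% lower.

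Of 15 genes known as beta-catenin targets or partners in endothelium elsewhere, chiefly the brain, 13 were tested, 0 were called and 4 had an unadjusted p under 0.05, all lower (30.8%, where 17.6% of all genes passed and 10.3% were lower). Abcb1a, an efflux pump gene of the blood-brain barrier, was at 101, 100.5, 96.8 and 95.9 CPM in nANGPTL4 AAV libraries 1 to 4, against 122, 116, 102 and 113 CPM in control AAV libraries 1 to 4, without overlap, and its log2 fold change was -0.20 (standard error 0.06, edgeR adjusted p = 0.112). The glucose transporter gene Slc2a1 had a log2 fold change of -0.34 (standard error 0.11, edgeR adjusted p = 0.157), Sox7 one of -0.25 (standard error 0.09, edgeR adjusted p = 0.179) and Sox17 one of -0.23 (standard error 0.09, edgeR adjusted p = 0.232), each with overlapping groups. DESeq2 called Abcb1a alone among the 13 (7.69%, where it called 6.14% of all such genes). Of 15 general Wnt target genes 14 were tested, 0 were called, and 2 had an unadjusted p under 0.05, both lower (14.3%, under the 17.6% of all genes). The adhesion receptor gene Cd44 was at 27.2, 25.9, 33.6 and 31.1 CPM in nANGPTL4 AAV libraries 1 to 4, against 40.9, 36.2, 35.2 and 35.9 CPM in control AAV libraries 1 to 4, without overlap, with a log2 fold change of -0.33 (standard error 0.08, edgeR adjusted p = 0.0961), and was the only one of the list that DESeq2 called (7.14% of 14). Trib2 had a log2 fold change of -0.21 (standard error 0.09, edgeR adjusted p = 0.234), Bmp4 one of 0.23 (standard error 0.11, edgeR adjusted p = 0.290) and Fgf18 one of 0.56 (standard error 0.30, edgeR adjusted p = 0.367). The median log2 fold changes were -0.03, -0.06 and 0.04 in the 3 lists, against 0.01 over all tested genes. These medians mix high and low genes. In 7 endothelial targets the mean log2 CPM was over 3, and all 7 were negative, with a median of -0.20. At that level 31 of 45 other Wnt genes (median -0.04) and 3 of 6 general targets (median -0.04) were negative. Over all genes 5787 of 9256 were, with a median of -0.03. A set of 7 genes is small, and its lower median was not tested.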

How the data were processed

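RNA of sorted lung endothelial cells was sequenced in 4 nANGPTL4 AAV and 4 control AAV libraries. Libraries were made with low-input cDNA and ChIP-seq kits, per the labels' protocols. The authors deposited whole-number read counts per Ensembl gene, not normalized, on the mm10 build named in the submitters' processing notes. For the aligner, counting program, strand setting and annotation, the sources used here give no name. The column titles matched the sample titles.

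Symbols were matched for 31491 of 31610 identifiers without version. Exon lengths, overlaps and coordinates came from GENCODE M21 on the same build. Counts were tested with edgeR 4.0.16 in R 4.3.3: filterByExpr with a minimum count of 10, TMM scaling, and the quasi-likelihood F test on the group alone. All p-values were adjusted by Benjamini-Hochberg over 18874 genes, with a threshold of 0.05. CPM used the TMM factors, and log2 CPM a prior count of 2. RPKM divides CPM by the union exon length in kilobases. The SE is the absolute log2 fold change over the root of F, and 95% intervals use the t quantile of the fit. The biological coefficient of variation was 11.3%.

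Members and lists were chosen with earlier results of these data known. Values per library are given for the 12 members with the smallest p and for Fzd4, Lrp5, Lrp6, Tspan12, Ctnnb1, Axin2, Lef1, Apcdd1, Tcf7l2, Wnt2, Wnt5a, Wnt7b, Rspo3 and Ndp, and the 4 genes with the smallest p are named in each further list. Other members with a fold change were picked for their level, their spread or their change with the covariate after their values were seen. In counts simulated for the 18874 genes of this comparison, with 50 genes changed at each fold, the test called 58% of those with a fold of 1.25, 92% of those with 1.5, 98% of those with 2 and 100% of those with 4, besides 9 unchanged genes, and it called 0 genes when none was changed. The changed genes were drawn only from those above a floor in mean log2 CPM that Wnt3a, Rspo1 and Lef1 do not reach. The simulated spread followed the trend over genes of a level, not the spread of each gene. These shares thus do not apply to the low members. Alternatives were other scalings, filters, tools (DESeq2 1.42.0, limma 3.58.1), a replicate block, a score of 57 markers of other cell types as a covariate, each library left out, and a threshold of 0.1.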

Additional observations from a re-analysis of the deposited data

Results flagged for a closer look

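A single library stood apart in 4 of the 110 sets of 4 libraries that the 55 genes give, by the gap to its neighbour as a share of the set's range, and chance flags about 1 in 20 sets. For Fzd4, nANGPTL4 AAV library 2 was the low one at 511 CPM, with the others between 568 and 577 CPM, and control AAV library 1 was the high one at 769 CPM, with the others between 616 and 635 CPM. For Fzd6, nANGPTL4 AAV library 1 was at 128 CPM and the other 3 at 123 CPM. For Fzd3, a Frizzled gene of axon guidance, control AAV library 4 was at 5.51 CPM, with the others between 6.59 and 6.62 CPM.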

How the results depend on the processing

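The count of pathway genes called stayed at 0 with each scaling, filter and edgeR or limma fit, with the replicate block, with the covariate and without any 1 library, while DESeq2 called 5 and a threshold of 0.1 called 2 (Wls and Lrp6, where 2.5% of all tested genes passed). The other Wnt genes called were 4 with DESeq2 and 2 at a threshold of 0.1, the endothelial targets 1 with DESeq2, and the general targets 1 with DESeq2 and 1 at a threshold of 0.1. Over all genes the count of 26 was 4 with upper quartile scaling, 4 with library size only, 1 with the stricter filter, 956 with DESeq2, 59 with the robust fit, 1 with the covariate, 471 at a threshold of 0.1, and 1 to 2 without any 1 library. The replicate block gave 6 genes over all and 0 in the pathway. Libraries with the same number did not deviate together (r of 0.138, 0.165, -0.254 and -0.308 for numbers 1 to 4), so the number was not used to pair them.

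Of the log2 fold changes, the 12 with the smallest p kept their direction in every setting that tested them (Wnt3a and Rspo1 were not tested under the stricter filter, which left 39 of the 51 members). Of the 51 members 17 had the other sign in at least 1 setting. These include Dkk3, Fzd7, Lgr5, Notum, Porcn, Reck, Rnf43, Sfrp2 and Znrf3, for which no fold change is given above. For the others the values were those of Axin2 with upper quartile scaling (0.0264), library size only (0.0303) and the stricter filter (0.0119), Fzd6 with upper quartile scaling (0.00638), library size only (0.00923) and the covariate (0.0768), Ccnd1 (-0.0413), Nkd2 (0.00568), Wnt2 (-0.38) and Wnt5a (-0.0986) with the covariate, and Lef1 (-0.0195) and Wnt5a (-0.0384) with limma-voom. Without 1 library the range over those of the others that turned was -0.0929 to 0.0605 for Axin2, -0.127 to 0.0296 for Fzd6, -0.0919 to 0.274 for Lef1, -0.111 to 0.0119 for Nkd2, -0.112 to 0.275 for Ryk and -0.0623 to 0.183 for Wnt5a. The cause of these changes was not tested. With few reads, as in Wnt3a, Rspo1 or Lef1, depth limits what can be told: the intervals then span a wide range, and a missed threshold does not show that the groups are alike.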
